A study of Caenorhabditis elegans with 12 samples.

Results

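The data described here are the transcript levels of 10 *Caenorhabditis elegans* genes that encode the enzymes and partner proteins of collagen modification and cross-linking. They were chosen by name for their roles in collagen maturation, with earlier results of these data known. All 10 were matched by gene identifier among the 46761 genes of the expression values. RNA was sequenced from whole young adult hermaphrodites of 4 genotypes, with 3 biological replicates each, from age-synchronized animals that were picked by hand (200 in total). The genotypes were *ddx-23(n5705)*, *mab-10(tm2497)*, *lin-29(n836)* and wild-type. All 4 strains carried the integrated reporter transgene *maIs105*, in which the adult-specific collagen promoter of *col-19* drives *gfp*, so that the wild-type is the reporter strain and not the plain Bristol strain. *lin-29* encodes a zinc-finger transcription factor of the larval-to-adult transition, *mab-10* encodes a NAB co-factor of LIN-29, and the DEAD-box helicase DDX-23 is the product of *ddx-23*, whose allele the study regards as a partial loss of function. The comparisons ask how gene expression in each mutant adult differs from that in wild-type adults.

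The *C. elegans* cuticle is a collagen matrix that the hypodermis makes anew for each molt. Within the endoplasmic reticulum, prolyl 4-hydroxylase hydroxylates the prolines of collagen chains. The enzyme consists of the alpha subunits DPY-18 (also called PHY-1) and PHY-2 and of the beta subunit PDI-2, a protein disulfide isomerase, and its main form in the worm holds both alpha subunits together. DPY-11 is a thioredoxin-like protein of the hypodermis that is needed for body shape. The furin-like convertase BLI-4 and the astacin metalloprotease DPY-31 act at the N-terminal and the C-terminal side of procollagens. Outside the cell, the dual oxidase BLI-3 produces the hydrogen peroxide with which peroxidases such as MLT-7 form tyrosine cross-links. The tetraspanin TSP-15 and the maturation factor DOXA-1 act together with BLI-3. Loss of several of these proteins gives short (Dpy) or blistered (Bli) animals.

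In the WBcel235 annotation, *dpy-18* lies on chromosome III from 11372886 to 11377980 on the minus strand, and *phy-2* on chromosome IV from 12211097 to 12215987, also on the minus strand. *pdi-2* is on chromosome X from 4524155 to 4526536 on the plus strand, and *dpy-11* on chromosome V from 6511583 to 6515240 on the minus strand. The protease genes are at 7202206 to 7207664 of chromosome III for *dpy-31* and at 6342224 to 6356680 of chromosome I for *bli-4*, both on the plus strand. *bli-3* spans 145968 to 154855 of chromosome I on the minus strand, and *tsp-15* spans 8928750 to 8931089 of chromosome I on the plus strand. *doxa-1* spans 8581102 to 8583910 of chromosome III and *mlt-7* spans 4393007 to 4404850 of chromosome II, both on the plus strand. The members are thus spread over 5 autosomes and the X chromosome, and no pair of them is adjacent. In this annotation *bli-4* overlaps the protein-coding gene *mut-2*, *bli-3* overlaps *F53G12.18* and *tsp-15* overlaps *madd-4*. Whether strand was used in quantification is not given in the sources used here, so that reads of these overlapping genes may not be separated.

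Levels are given as FPKM, the fragments per kilobase of transcript, scaled to the mapped fragments of the library, and differences on the scale of log2(FPKM+1), in which 1 stands for a doubling of a gene with a high level and understates the change of a gene with a low one. The FPKM give no count of reads, so the depth of each library is unknown. The labels give each library a number. Those up to 3244 (all *ddx-23* replicates, replicates 1 and 2 of the wild-type, and the first replicates of *lin-29* and *mab-10*) are called the earlier libraries, and those from 3248 (wild-type replicate 3, *lin-29* replicates 2 and 3 and *mab-10* replicates 2 and 3) the later ones. Earlier and later refer to these numbers alone, not to a known date or batch. With this series as a term beside the genotype, 3577 of the 14199 tested genes were higher in the later libraries and 1153 lower (limma, adjusted p under 0.05). The border between the series was drawn with values of these data in view. Counts and p-values of the series term, here and below, are therefore descriptions and no test of that border. Summed over a list of intestinal markers (*elt-2*, *ges-1* and the vitellogenins *vit-2*, *vit-5* and *vit-6*), the FPKM were 16802 to 17502 in wild-type and 8714 to 9443 in *lin-29* mutants. That sum is nearly all vitellogenin: the 3 *vit* genes were called lower, whereas *elt-2* (0.77, limma adjusted p = 0.0215) and *ges-1* (0.92, adjusted p = 0.0382) were called higher. The 6 sperm markers summed to 155 to 249 FPKM in wild-type and 327 to 387 in *lin-29* mutants. A list of 6 molting genes summed to 47.9 to 101 FPKM in wild-type, 178 to 314 in *lin-29* mutants, 91.3 to 126 in *mab-10* mutants and 45.9 to 53.2 in *ddx-23* mutants. Much of the low sums is *nhr-23*, with means of 30.3 FPKM in wild-type and 32.4 in *ddx-23* mutants. The means of *mlt-10*, *mlt-11*, *noah-1*, *noah-2* and *fbn-1* were lower in *ddx-23* mutants than in wild-type, and none was called. In each of them wild-type replicate 3 was the highest wild-type library. The 7 hypodermal and cuticle markers summed to 253 to 549 FPKM in wild-type and to 205 to 857 in *lin-29* mutants, sums that hide opposite changes. In *lin-29* mutants *col-19* was lower (-3.96, limma adjusted p = 2.97e-04), whereas *rol-6* (5.12), *sqt-1* (5.18), *dpy-7* (3.18) and *sqt-3* (3.01) were higher. No marker was at 0 throughout a genotype. The part of these lists in the differences below was not tested. In whole animals, fewer cells of a type and less RNA per cell cannot be told apart.

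All 10 members passed the filter on low values and were tested. In wild-type adults their mean levels ran from 467.5 FPKM for *pdi-2*, 152 for *dpy-11* and 88.2 for *bli-4* through 22.6 for *dpy-18*, 11.9 for *dpy-31* and 10.9 for *phy-2* down to 3.40 for *bli-3*, 2.95 for *mlt-7*, 2.51 for *tsp-15* and 1.09 for *doxa-1*. The first 3 genes of this order did not overlap any other member in their wild-type libraries. The levels of *dpy-18*, *dpy-31* and *phy-2* overlapped each other, as did those of *bli-3*, *mlt-7* and *tsp-15*. Thus the genes of the dual oxidase step were the lowest of the set in wild-type, and the isomerase that serves as the beta subunit of the hydroxylase was the highest.

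**Figure D1:**
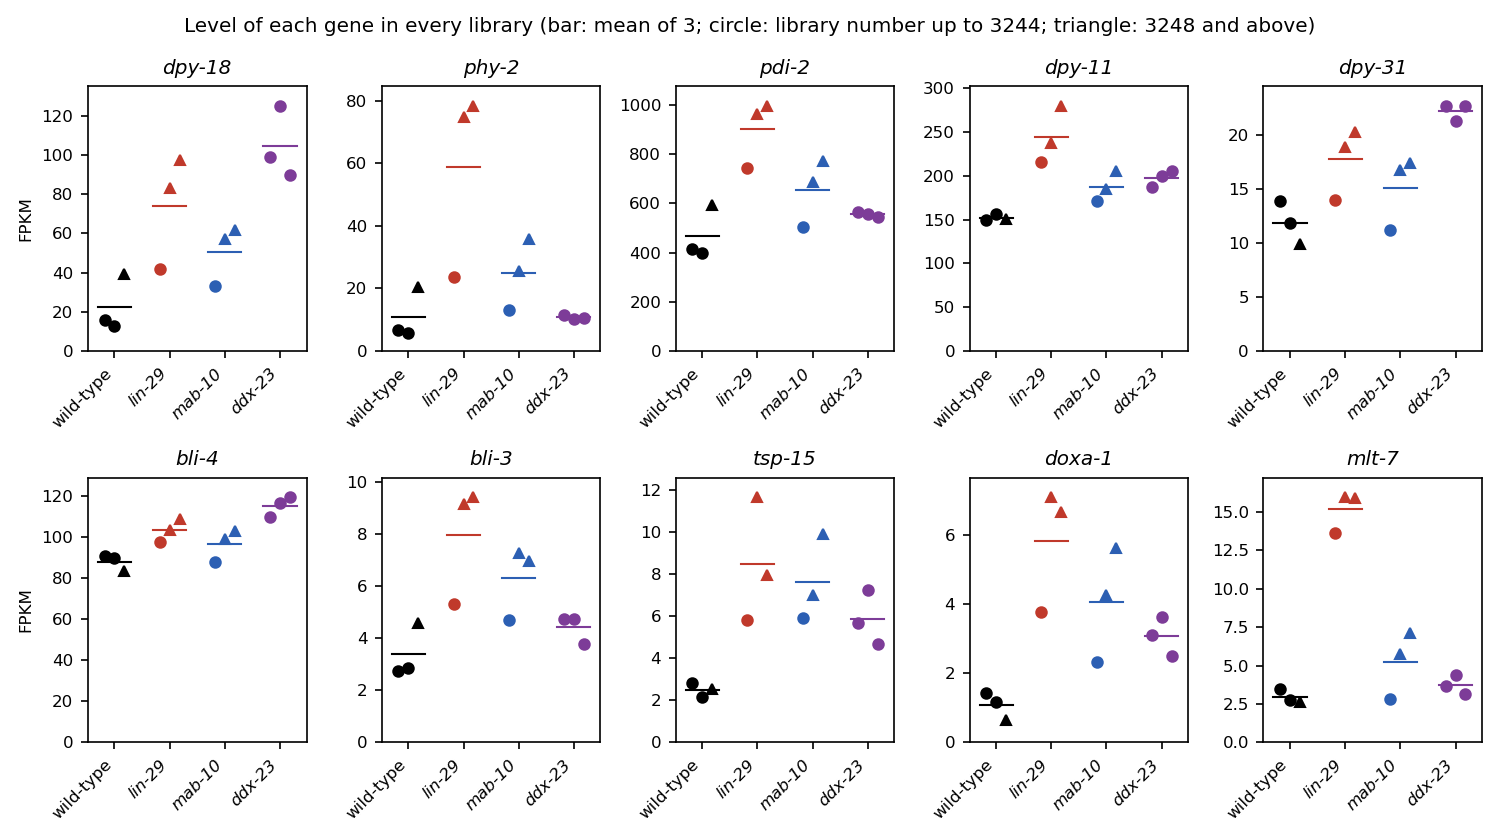
FPKM of each member (y axis, from 0) in the 3 libraries of each genotype (x axis), with bars at the means; circles are libraries numbered up to 3244 and triangles those from 3248. All *lin-29* libraries lie above all wild-type libraries in each of the 10 panels, and *ddx-23* libraries lie above all others in the panels of *dpy-31* and *bli-4*.

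In *lin-29* mutants 8 of the 10 members were higher than in wild-type and none was lower (limma, adjusted p under 0.05). Among all tested genes 16.3% were higher and 2.73% lower. The members were chosen with earlier results of these data known. Their counts beside such shares, here and for the other mutants, are therefore descriptions. The 2 members not called were the proteases *dpy-31* and *bli-4*. Of the 8 called, 6 also differed by more than 1 on the log2 scale, a threshold that 11.1% of all genes passed. The 3 *lin-29* libraries lay above all 3 wild-type libraries in 10 of 10 members, against 24.11% of all genes. The count of higher members was 5 when the second or the third *lin-29* replicate or the second replicate of the wild-type was left out. In those fits 1454, 1422 and 1376 of all genes were called higher, against 2320 in the model of all libraries.

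In *mab-10* mutants 1 member, *tsp-15*, was higher and none was lower, where 1.04% of all genes were higher and 0.232% lower. That gene also differed by more than 1, as did 0.901% of all genes. The *mab-10* libraries all lay above the wild-type ones for *dpy-11*, *bli-3*, *tsp-15* and *doxa-1*, which is 4 of 10 members against 14.84% of all genes. At an unadjusted p under 0.05, 8 members were counted. No share of all genes was taken at that threshold, so this count cannot be set beside the shares above. Leaving out 1 library gave 6 called members for the third wild-type replicate, 4 for the first *mab-10* replicate and 2 for the first *lin-29* replicate. Higher calls over all genes were 1865, 1485 and 260 in these fits, against 147 in the model of all libraries. The count of members was 0 when a *ddx-23* replicate, the second or the third *mab-10* replicate, the third *lin-29* replicate or the first or the second wild-type replicate was left out.

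In *ddx-23* mutants 5 members (*dpy-18*, *dpy-11*, *dpy-31*, *bli-4* and *tsp-15*) were higher and none was lower, where 7.17% of all genes were higher and 1.46% lower. Only *dpy-18* among them differed by more than 1, as did 4.7% of all genes. For *tsp-15*, which has a low level, a difference of 0.95 went with a mean FPKM 2.33-fold that of wild-type. The groups did not overlap in 6 of 10 members, the 5 called and *doxa-1*, against 24.12% of all genes. The count was 1 when *ddx-23* replicate 2 or 3 was left out, 2 when the first *ddx-23* or the second wild-type replicate was, and 3 when the first or the third wild-type or the second *mab-10* replicate was. Higher calls over all genes ran in these fits from 515 (without wild-type replicate 2) to 1636 (without wild-type replicate 3), against 1018 in the model of all libraries.

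The median difference of the 10 members from wild-type was 1.21 for *lin-29*, 0.67 for *mab-10* and 0.38 for *ddx-23*. The medians over all tested genes were 0.19, 0.14 and 0.094, and became 0.014, -0.0099 and -0.016 when the libraries were scaled by their median ratio. Relative to all genes, the members' medians were therefore higher by 1.02, 0.53 and 0.29. All 10 differences were positive in each mutant in the model of all libraries, but *bli-4* in *mab-10* mutants became -0.04 under the median-ratio scaling and within the earlier libraries, where *dpy-31* and *mlt-7* became -0.18 and -0.11, and *phy-2* in *ddx-23* mutants became -0.12 under quantile normalization and -0.03 and -0.12 with the first or the second wild-type replicate left out, while *bli-3* and *mlt-7* in *ddx-23* mutants became -0.00 and -0.06 under quantile normalization. None of these differences was called. The 3 mutants were compared with the same wild-type libraries, so that their differences are not independent of each other.

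**Figure D2:**
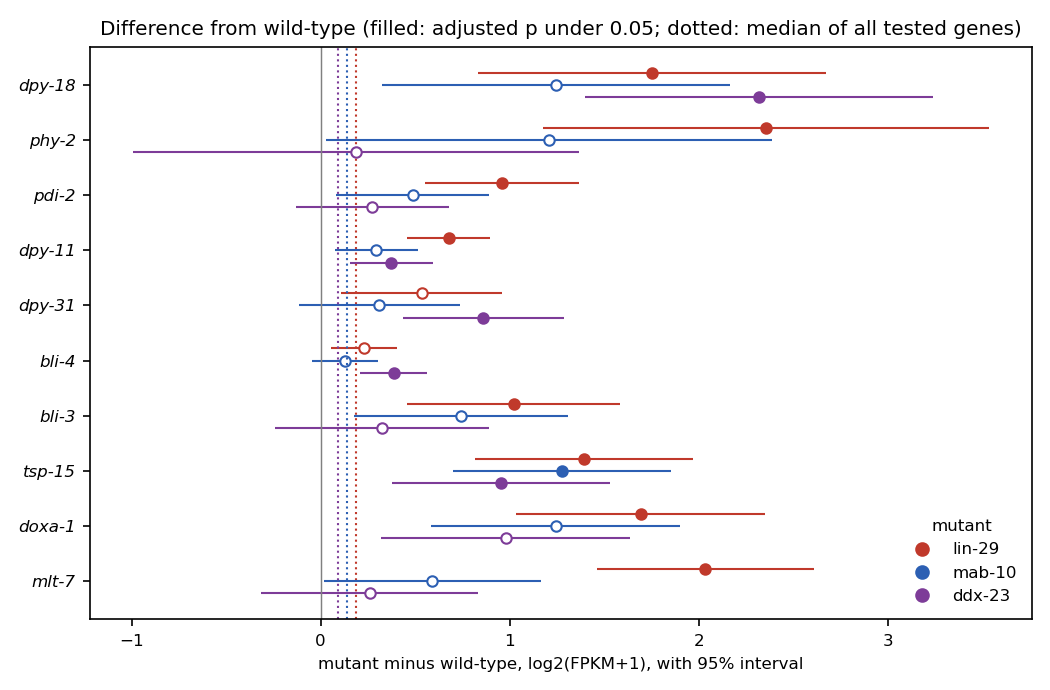
Difference of each member between a mutant and wild-type on the log2(FPKM+1) scale (x axis), with 95% intervals from the limma model; filled points have an adjusted p under 0.05, and dotted lines mark the medians of all tested genes. The *lin-29* points of 8 members are filled, with the largest at 2.36 for *phy-2* and 2.03 for *mlt-7*, and the *ddx-23* points of *dpy-18* (2.32) and *phy-2* (0.19) stand far apart.

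Both alpha subunits of prolyl 4-hydroxylase were called higher in *lin-29* mutants, and *dpy-18* in *ddx-23* mutants as well. In replicates 1, 2 and 3, *dpy-18* measured 15.9, 12.6 and 39.4 FPKM in wild-type, 41.8, 83.1 and 97.7 in *lin-29* mutants, 32.9, 56.9 and 62.0 in *mab-10* mutants, with 99.2, 125 and 89.95 in *ddx-23* mutants. The *ddx-23* libraries were all far above wild-type, the *lin-29* libraries were also all above it, and the *mab-10* group overlapped wild-type through wild-type replicate 3. The mean level was 4.63-fold that of wild-type with *ddx-23* mutated, 3.28-fold with *lin-29* and 2.24-fold with *mab-10* mutated. On the log2 scale the difference was 2.32 in *ddx-23* mutants (SE 0.42, limma adjusted p = 0.00639) and 1.75 in *lin-29* mutants (SE 0.42, adjusted p = 0.0139). In *mab-10* mutants it was 1.25 and was not called (limma adjusted p = 0.152). The call in *ddx-23* mutants held in every alternative run (adjusted p from 3.26e-06 to 0.0335), whereas that in *lin-29* mutants was lost when *lin-29* replicate 2 or 3 or the first or the second wild-type replicate was left out (adjusted p from 0.0583 to 0.065) and when *lin-29* was fitted with wild-type alone (0.0564).

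For *phy-2*, the other alpha subunit, the levels were 6.62, 5.75 and 20.5 FPKM in wild-type, 23.6, 74.8 and 78.5 in *lin-29* mutants, 13.0, 25.5 and 35.9 in *mab-10* mutants, with 11.5, 10.35 and 10.49 in *ddx-23* mutants. All *lin-29* libraries were above wild-type, whereas the *ddx-23* libraries lay between wild-type replicate 1 and wild-type replicate 3. The mean level in *lin-29* mutants was 5.39-fold that of wild-type, with a log2 difference of 2.36 (SE 0.53, limma adjusted p = 0.0109). That call was lost, at adjusted p from 0.0519 to 0.0538, when the second or the third *lin-29* or the second wild-type replicate was left out. The *ddx-23* difference was 0.19 with a 95% interval of -0.99 to 1.37 (limma adjusted p = 0.886), an interval that still holds a difference of 1.

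Both alpha subunits were higher in wild-type replicate 3 than in the other wild-type libraries, by 1.41 for *dpy-18* and 1.58 for *phy-2* on the log2 scale. They were also higher in the later libraries when the series was a term of the model, by 1.11 for *dpy-18* (limma adjusted p = 2.9e-04) and 1.47 for *phy-2* (adjusted p = 7.0e-05). These 2 p-values are descriptions, since the border of the series was drawn with values of these data in view. The *lin-29* difference of *dpy-18* was 1.5 within the earlier libraries and 1.17 within the later ones (adjusted p = 0.00643 and 0.00509), and that of *phy-2* was 1.78 and 1.85 (adjusted p = 0.000863 and 0.00536). Hence both genes were called in *lin-29* mutants within either series, in which the genotypes are compared among libraries of like number. Each of these fits rests on 1 *lin-29* library or on 1 wild-type library, whose spread is assumed to be that of the other groups.

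The beta subunit gene *pdi-2* measured 414, 396 and 592 FPKM in wild-type, 744, 966 and 998 in *lin-29* mutants, 505, 686 and 771 in *mab-10* mutants, with 566, 557 and 545 in *ddx-23* mutants. All *lin-29* libraries were above wild-type, and the other mutant groups overlapped it through wild-type replicate 3. The *lin-29* mean was 1.93-fold that of wild-type, a log2 difference of 0.96 (SE 0.18, limma adjusted p = 0.00438) that held in every alternative run. It was 0.87 within the earlier libraries and 0.73 within the later ones. Its differences of 0.49 for *mab-10* (limma adjusted p = 0.182) and 0.27 for *ddx-23* (adjusted p = 0.421) were not called.

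The ratio of the alpha subunits is given as a description, since it was examined after the levels had been seen. The FPKM of *dpy-18* divided by that of *phy-2* was 2.40, 2.19 and 1.93 in the wild-type libraries. It was 1.77, 1.11 and 1.25 for *lin-29*, 2.54, 2.24 and 1.73 for *mab-10* and 8.63, 12.1 and 8.57 for *ddx-23*. Wild-type replicate 3, in which both genes were high, had a ratio slightly below those of the other wild-type libraries, and the *ddx-23* libraries stood far from all others. In wild-type, *lin-29* and *mab-10* alike, the later libraries had lower ratios than the earlier ones. Replicates 2 and 3 of *lin-29* are later libraries, against replicate 3 alone of wild-type. The part of the series in the ratios was not tested. On the log2 scale the mean ratio of wild-type was 1.11 ± 0.16, that of *lin-29* 0.43 ± 0.35, that of *mab-10* 1.1 ± 0.28 and that of *ddx-23* mutants 3.27 ± 0.28 (SD, 3 libraries each). The *ddx-23* ratio was higher than that of wild-type by 2.16 and that of *mab-10* by 2.17. An exact two-sided permutation test gave p = 0.1 for each, which is the smallest p that 3 libraries against 3 allow over 20 splits. For *lin-29* against wild-type the difference in the ratio was -0.68 (exact permutation p = 0.1) and for *mab-10* against wild-type it was -0.016 (exact permutation p = 1.0).

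**Figure D3:**
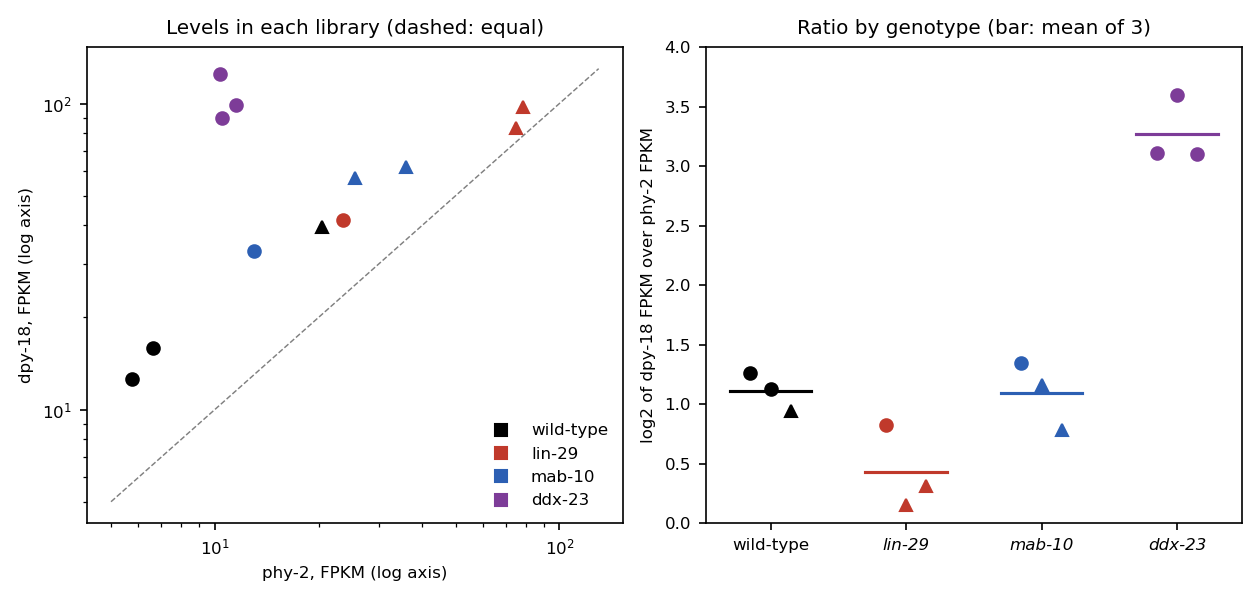
Left, FPKM of *dpy-18* against FPKM of *phy-2* in the 12 libraries, both axes logarithmic, with a dashed line where the levels are equal; right, log2 of their ratio by genotype, with bars at the means (circles, libraries numbered up to 3244; triangles, from 3248). The *ddx-23* libraries stand apart at ratios of 8.57 to 12.1, while wild-type, *lin-29* and *mab-10* libraries lie along 1 band with ratios of 1.11 to 2.54.

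The thioredoxin-like gene *dpy-11* measured 149, 156 and 151 FPKM in wild-type, 216, 238 and 280 in *lin-29* mutants, 171, 185 and 205 in *mab-10* mutants, with 187, 199 and 206 in *ddx-23* mutants. Its wild-type libraries were close together, wild-type replicate 3 included, and all mutant libraries were above them. *lin-29* mutants differed from wild-type by 0.68 (SE 0.10, limma adjusted p = 9.2e-04) and *ddx-23* mutants by 0.37 (adjusted p = 0.0424). In *mab-10* mutants it was 0.29 and was not called (limma adjusted p = 0.156). The *lin-29* call held in every alternative run, with 0.50 within the earlier and 0.77 within the later libraries. That in *ddx-23* mutants was lost under both scalings (adjusted p = 0.168 and 0.0807), without the low-value filter (0.0564), in limma without its trend and robust options (0.0784) and without any 1 of the wild-type or *ddx-23* libraries, *lin-29* replicate 2 or *mab-10* replicate 2 (0.0588 to 0.138).

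The genes of the procollagen proteases stood highest in *ddx-23* mutants. *dpy-31* measured 13.9, 11.9 and 9.93 FPKM in wild-type, 13.98, 18.9 and 20.3 in *lin-29* mutants, 11.2, 16.7 and 17.4 in *mab-10* mutants, with 22.7, 21.3 and 22.7 in *ddx-23* mutants. The *ddx-23* libraries lay above every other library, and the lowest *lin-29* library exceeded the highest of wild-type only narrowly. In *ddx-23* mutants the difference from wild-type was 0.86 (SE 0.19, limma adjusted p = 0.0194), a mean level 1.87-fold that of wild-type, and within the earlier libraries it was 0.75 (adjusted p = 0.00252). It lost its call under quantile normalization (limma adjusted p = 0.0647) and when any 1 of the *ddx-23* libraries or the second wild-type library was left out (0.0623 to 0.0716). The *lin-29* difference of 0.53 was not called (limma adjusted p = 0.0785). It was 0.11 within the earlier and 0.91 within the later libraries, where it was called (adjusted p = 0.0144).

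*bli-4*, the convertase, had the smallest differences of the set in *lin-29* and *mab-10* mutants. It measured 91.2, 90.1 and 83.4 FPKM in wild-type, 97.6, 104 and 109 in *lin-29* mutants, 88.0, 99.2 and 103 in *mab-10* mutants, with 110, 117 and 120 in *ddx-23* mutants. Its *ddx-23* libraries were all above every other library. The *ddx-23* difference of 0.39 (SE 0.079, limma adjusted p = 0.0127) corresponds to a mean level 1.31-fold that of wild-type. It was lost under the median-ratio scaling (limma adjusted p = 0.113), under quantile normalization (0.0574) and without *ddx-23* replicate 2 or 3 (0.058 and 0.0584). In *lin-29* mutants the difference was 0.23 (limma adjusted p = 0.0697) and in *mab-10* mutants 0.13 (adjusted p = 0.360).

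The genes of the dual oxidase complex had low levels in wild-type and were all called in *lin-29* mutants. The oxidase gene *bli-3* measured 2.75, 2.85 and 4.59 FPKM in wild-type, 5.34, 9.17 and 9.43 in *lin-29* mutants, 4.69, 7.29 and 6.99 in *mab-10* mutants, with 4.76, 4.74 and 3.79 in *ddx-23* mutants. The *lin-29* and *mab-10* libraries all exceeded wild-type, the lowest *mab-10* library by little, and the *ddx-23* group overlapped wild-type replicate 3. In *lin-29* mutants the difference was 1.02 (SE 0.26, limma adjusted p = 0.0181). It fell short of the threshold under quantile normalization (limma adjusted p = 0.114), with wild-type and *lin-29* alone (0.073) and when *lin-29* replicate 2 or 3 or the first or the second wild-type replicate was left out (0.0737 to 0.0784). Within the earlier and the later libraries it was 0.74 and 0.88 (limma adjusted p = 0.0392 and 0.0343).

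For *tsp-15*, the tetraspanin of the complex, the levels were 2.82, 2.16 and 2.55 FPKM in wild-type, 5.82, 11.7 and 7.94 in *lin-29* mutants, 5.90, 7.03 and 9.93 in *mab-10* mutants, with 5.67, 7.23 and 4.66 in *ddx-23* mutants. It was the single member called in all 3 mutants, and none of the mutant libraries reached down to the wild-type levels. *lin-29* mutants differed from wild-type by 1.39 (SE 0.26, limma adjusted p = 0.00385), *mab-10* mutants by 1.27 (adjusted p = 0.0453) and *ddx-23* mutants by 0.95 (adjusted p = 0.0471). The *lin-29* call held in every alternative run. The other calls lie close to the threshold: across the alternatives the adjusted p of *mab-10* ranged from 0.0154 to 0.213 and that of *ddx-23* from 0.00646 to 0.19, and both were lost under either scaling, without the low-value filter, with a replicate block (0.0503 and 0.0547) and when a *ddx-23* replicate, the second *mab-10*, the third *lin-29* or the first or the second wild-type replicate was left out. That of *mab-10* mutants was also lost without *mab-10* replicate 3, with wild-type alone (limma adjusted p = 0.213) and within the earlier (0.99, adjusted p = 0.0628) and the later libraries (1.4, adjusted p = 0.0927), and that of *ddx-23* mutants without wild-type replicate 3 (adjusted p = 0.0577), while within the earlier libraries it was 0.96 (adjusted p = 0.0139).

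The maturation factor gene *doxa-1* had the lowest wild-type levels, 1.44, 1.16 and 0.66 FPKM, and measured 3.76, 7.09 and 6.65 in *lin-29* mutants, 2.33, 4.27 and 5.61 in *mab-10* mutants, with 3.11, 3.64 and 2.5 in *ddx-23* mutants. Every mutant library was above every wild-type library. In *lin-29* mutants the mean was 5.37-fold that of wild-type and the difference 1.69 (SE 0.30, limma adjusted p = 0.00265), and the call held in every alternative run. The differences of 1.24 for *mab-10* and 0.98 for *ddx-23* were not called (limma adjusted p = 0.0774 and 0.0716).

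*mlt-7*, the peroxidase gene, measured 3.45, 2.78 and 2.62 FPKM in wild-type, 13.6, 15.95 and 15.9 in *lin-29* mutants, 2.81, 5.72 and 7.13 in *mab-10* mutants, with 3.65, 4.4 and 3.16 in *ddx-23* mutants. The *lin-29* libraries stood far above all others and close to each other, while the other mutant groups overlapped wild-type. In *lin-29* mutants the mean was 5.13-fold that of wild-type and the difference 2.03 (SE 0.26, limma adjusted p = 3.67e-04). Across the alternatives its adjusted p stayed at or below 0.00351, and it was 1.83 within the earlier and 2.22 within the later libraries. The differences of 0.59 for *mab-10* (limma adjusted p = 0.228) and 0.26 for *ddx-23* (adjusted p = 0.615) were not called.

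Between mutants, the difference itself was tested for each member. *lin-29* minus *mab-10* gave 2 called members of 10, where 9.4% of all genes were called in either direction, a count near that share for so small a set. The peroxidase gene *mlt-7* was higher in *lin-29* mutants by 1.44 (SE 0.26, limma adjusted p = 0.00547), which held in every alternative run, and *dpy-11* by 0.38 (adjusted p = 0.0372), whose adjusted p ranged from 0.00937 to 0.13 across the alternatives. Within the later libraries, with 2 of each mutant, the difference of *mlt-7* was 1.19 (limma adjusted p = 0.0124) and that of *dpy-11* was 0.41 and not called (adjusted p = 0.0591). The earlier libraries hold 1 of each mutant, whose difference was 1.94 for *mlt-7* and 0.33 for *dpy-11* and has no replicate check. The remaining 8 differences were positive and not called in the model of all libraries, and that of *tsp-15*, at 0.12, turned to -0.13 under quantile normalization. Of these 8, the hydroxylase genes were called with the series as a term and within the later libraries, *phy-2* at 1.15 and 1.31 (limma adjusted p = 3.66e-04 and 0.00883), *pdi-2* at 0.47 and 0.43 (adjusted p = 5.41e-04 and 0.0295) and *dpy-18* at 0.51 and 0.59 (adjusted p = 0.0392 and 0.0212).

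*lin-29* minus *ddx-23* gave 3 called members, where 21.2% of all genes were called, a count near that share for so small a set. *phy-2* was higher in *lin-29* than in *ddx-23* mutants by 2.17 (SE 0.53, limma adjusted p = 0.0160), *mlt-7* by 1.77 (SE 0.26, adjusted p = 9.5e-04) and *pdi-2* by 0.69 (SE 0.18, adjusted p = 0.0232). That of *mlt-7* held in every alternative run. The call of *phy-2* was lost without *lin-29* replicate 2 or 3 or *ddx-23* replicate 2 or 3 (limma adjusted p from 0.0517 to 0.072) and that of *pdi-2* when a *ddx-23* library or *lin-29* replicate 2 or 3 was left out (0.0615 to 0.091). Within the earlier libraries the differences of *phy-2*, *mlt-7* and *pdi-2* were 1.06, 1.63 and 0.42, each called (limma adjusted p = 0.00346, 0.00373 and 0.00489). These fits hold 1 *lin-29* library. The difference of *phy-2* was thus less than what all libraries gave, by more than 1 log2 unit. *dpy-18* went the other way, at -0.57 in all libraries (not called, limma adjusted p = 0.358), -1.31 with the series as a term (adjusted p = 4.69e-04) and -1.29 within the earlier libraries (adjusted p = 0.00865), that is, lower in *lin-29* than in *ddx-23* mutants. *dpy-31* was also called lower within the earlier libraries (-0.63, limma adjusted p = 0.0143), against -0.33 in all libraries (adjusted p = 0.253).

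*mab-10* minus *ddx-23* gave 0 called members in limma, where 8.09% of all genes were called at the adjusted threshold. At an unadjusted p under 0.05 there were 3, and no share of all genes was taken at that threshold. Those 3 were *dpy-18* at -1.07 (adjusted p = 0.135), *dpy-31* at -0.55 (adjusted p = 0.104) and *bli-4* at -0.26 (adjusted p = 0.0737), and in each the *mab-10* libraries all lay below the *ddx-23* libraries. The same held for 2278 of the 14199 tested genes. With the series as a term these 3 members were called, *dpy-18* at -1.81 (limma adjusted p = 1.84e-04). In that fit 1248 of all tested genes were called lower, against 695 in the model of all libraries. Within the earlier libraries, with 1 *mab-10* library, the difference of *dpy-18* was -1.63.

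The *ddx-23* libraries all belong to the earlier series, whereas 1 wild-type library belongs to the later one. With the series as a term, or within the earlier libraries alone, 9 of the 10 members were called higher in *ddx-23* mutants in place of 5. Higher calls over all 14199 tested genes rose as well, from 1018 to 2701 and 3826. *phy-2* was then higher by 0.68 and 0.71 (limma adjusted p = 0.00843 and 0.00451), *pdi-2* by 0.44 and 0.45 (adjusted p = 9.88e-04 and 0.00109), *bli-3* by 0.52 and 0.51 (adjusted p = 0.019 and 0.0411) and *doxa-1* by 1.1 and 0.82 (adjusted p = 0.0156 and 0.017). The difference of *dpy-18* was 2.69 and 2.79, so that it remained the largest of the set by far. *mlt-7* was the member not called, at 0.37 and 0.2 (limma adjusted p = 0.288 and 0.398). The series and the genotype cannot be fully told apart in *ddx-23* mutants, which have no later library, and the border between the series was drawn with values of these data in view.

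**Figure D4:**
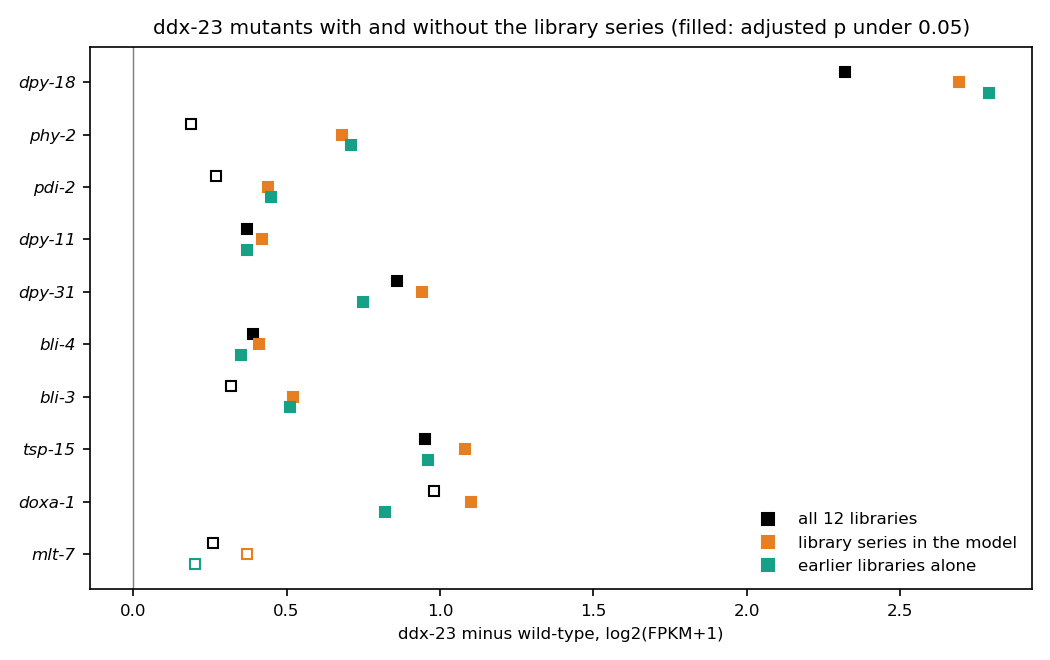
Difference of each member between *ddx-23* mutants and wild-type on the log2(FPKM+1) scale (x axis), from all 12 libraries, from the model with the library series as a term and from the earlier libraries alone; filled squares have a limma adjusted p under 0.05. *dpy-18* stays between 2.32 and 2.79, *phy-2* moves from 0.19 to 0.68 and 0.71, and the squares of *mlt-7* are open throughout.

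In *mab-10* mutants 6 members were called higher with the series as a term, namely *dpy-18* (0.88, limma adjusted p = 0.0116), *phy-2* (0.72, adjusted p = 0.0217), *pdi-2* (0.32, adjusted p = 0.02), *bli-3* (0.54, adjusted p = 0.0415), *tsp-15* (1.15, adjusted p = 0.0172) and *doxa-1* (1.12, adjusted p = 0.0387). Over all tested genes 778 were called higher in that fit, against 147 in the model of all libraries. Within the earlier libraries, with 1 *mab-10* library, the hydroxylase subunit genes differed by 1.16 (*dpy-18*), 0.96 (*phy-2*) and 0.32 (*pdi-2*). Within the later libraries, with 1 wild-type library, *doxa-1* differed by 1.83. Of the 10 members, *dpy-18*, *phy-2*, *pdi-2* and *bli-3* were higher in the later libraries in this model, *pdi-2* by 0.49 (limma adjusted p = 2.3e-04) and *bli-3* by 0.59 (adjusted p = 0.00319), and the other 6 were not called.

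Over the 12 libraries, the 45 pairs of members all had a positive Pearson r on the log2 scale, between 0.18 and 0.97 with a median of 0.735. These are descriptions over libraries that share genotypes and library series. The highest were *phy-2* with *pdi-2* (0.97), *dpy-31* with *bli-4* (0.97), *pdi-2* with *bli-3* (0.96), *phy-2* with *bli-3* (0.95) and *tsp-15* with *doxa-1* (0.95), and the lowest was *phy-2* with *bli-4* (0.18). The alpha subunit genes *dpy-18* and *phy-2* had an r of 0.50 over all libraries and 0.95 when each library was taken relative to the mean of its genotype. In the *ddx-23* libraries *dpy-18* was at 89.95 to 125 FPKM and *phy-2* at 10.35 to 11.5. These *phy-2* levels were above wild-type replicates 1 and 2 (6.62 and 5.75) and below wild-type replicate 3 (20.5). Among the tested genes that are not members, *dpy-18* was most like *nex-1* (r = 0.994 over 12 libraries), *phy-2* was most like *tsp-14* (0.991), *pdi-2* like *C14B9.3* (0.989) and *bli-3* like *nfm-1* (0.986). The nearest to *mlt-7* was *T21C9.9* (0.986), to *doxa-1* *unc-43* (0.978), to *tsp-15* *T14A8.2* (0.966), to *dpy-11* *dapk-1* (0.963), to *bli-4* *dnj-20* (0.957) and to *dpy-31* *gpx-5* (0.947).

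Other genes of collagen maturation were taken as 34 listed genes, of which 33 had values and 30 were tested. The *lin-29* mutants had 12 of them higher and 1 lower, the *mab-10* mutants 1 each way, and the *ddx-23* mutants 3 higher and 1 lower. The shares of all tested genes called higher were 16.3%, 1.04% and 7.17%, so that the *ddx-23* count, 3 of 30, is near the background. Their median differences were 0.37, 0.25 and 0.070, against 0.19, 0.14 and 0.094 for all tested genes. In *lin-29* mutants, the count of higher genes was 7 when *lin-29* replicate 2 or 3 or the first or the second wild-type replicate was left out and 20 when the third wild-type replicate was.

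The list of cuticle protease inhibitors, *bli-5* and *mlt-11*, was called higher in *lin-29* mutants in both of its genes. *bli-5*, a Kunitz-type inhibitor whose loss blisters the cuticle, measured 0.14, 0.27 and 0.00 FPKM in wild-type and 3.31, 9.03 and 8.71 in *lin-29* mutants, a difference of 2.73 (SE 0.36, limma adjusted p = 4.64e-04). *mlt-11*, which is also among the molting markers above, measured 1.92, 1.57 and 8.11 FPKM in wild-type and 19.9, 23.3 and 40.6 in *lin-29* mutants, a difference of 2.76 (SE 0.44, adjusted p = 0.00149). In *ddx-23* mutants *mlt-11* was at 0.40, 0.45 and 0.66 FPKM, below all wild-type libraries, and the difference of -1.45 was not called (limma adjusted p = 0.0710).

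Of the 5 tested peroxidases, 4 were higher and 1 was lower in *lin-29* mutants. The *skpo* genes encode peroxidases with a ShK toxin-like domain. *skpo-2* measured 0.12, 0.09 and 0.57 FPKM in wild-type and 3.64, 14.4 and 20.0 in *lin-29* mutants (3.20, SE 0.63, limma adjusted p = 0.00505). *skpo-3* measured 6.63, 4.75 and 4.46 FPKM in wild-type, 13.2, 15.8 and 17.1 in *lin-29* mutants, 10.8, 11.5 and 12.4 in *mab-10* mutants, with 22.5, 22.4 and 23.9 in *ddx-23* mutants. It was higher in all 3 mutants, by 1.39, 1.02 and 1.95 (limma adjusted p = 1.74e-04, 0.0124 and 6.8e-05), with no overlap between wild-type and any mutant. *pxn-1*, a peroxidasin, was higher in *lin-29* mutants by 1.0 and in *ddx-23* mutants by 0.73 (limma adjusted p = 0.00162 and 0.0187). The abundant *skpo-1*, named after its values were seen as the 1 gene of the list that went down, was lower in *lin-29* mutants (-0.57, limma adjusted p = 0.0169) and *ddx-23* mutants (-0.66, adjusted p = 0.0155).

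In the lists of the endoplasmic reticulum and of secretion, no list had more than 2 genes called in a mutant. Of 6 tested isomerases and genes of oxidative folding, *pdi-3* (0.57, limma adjusted p = 0.00514) and *dnj-27* (0.82, adjusted p = 0.0465) were higher in *lin-29* mutants. Among 5 chaperones, the calreticulin gene *crt-1* (0.71, limma adjusted p = 0.0192) and the endoplasmin gene *enpl-1* (0.46, adjusted p = 0.0262) were higher in *lin-29* mutants, and *hsp-4*, a BiP homolog induced by the unfolded protein response, was higher in *ddx-23* mutants (0.56, adjusted p = 0.0306). The 7 genes of collagen secretion gave the COPII coat gene *sec-24.1* (0.23, adjusted p = 0.0464) in *lin-29* mutants, and the 3 other convertases gave *aex-5* (0.72, adjusted p = 0.0169). *phy-3*, an alpha subunit outside the cuticle-forming enzyme, was lower in *mab-10* mutants (-0.90, limma adjusted p = 0.0379), at 1.61, 1.71 and 1.34 FPKM against 4.5, 3.39 and 3.44 in wild-type.

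**Figure D5:**
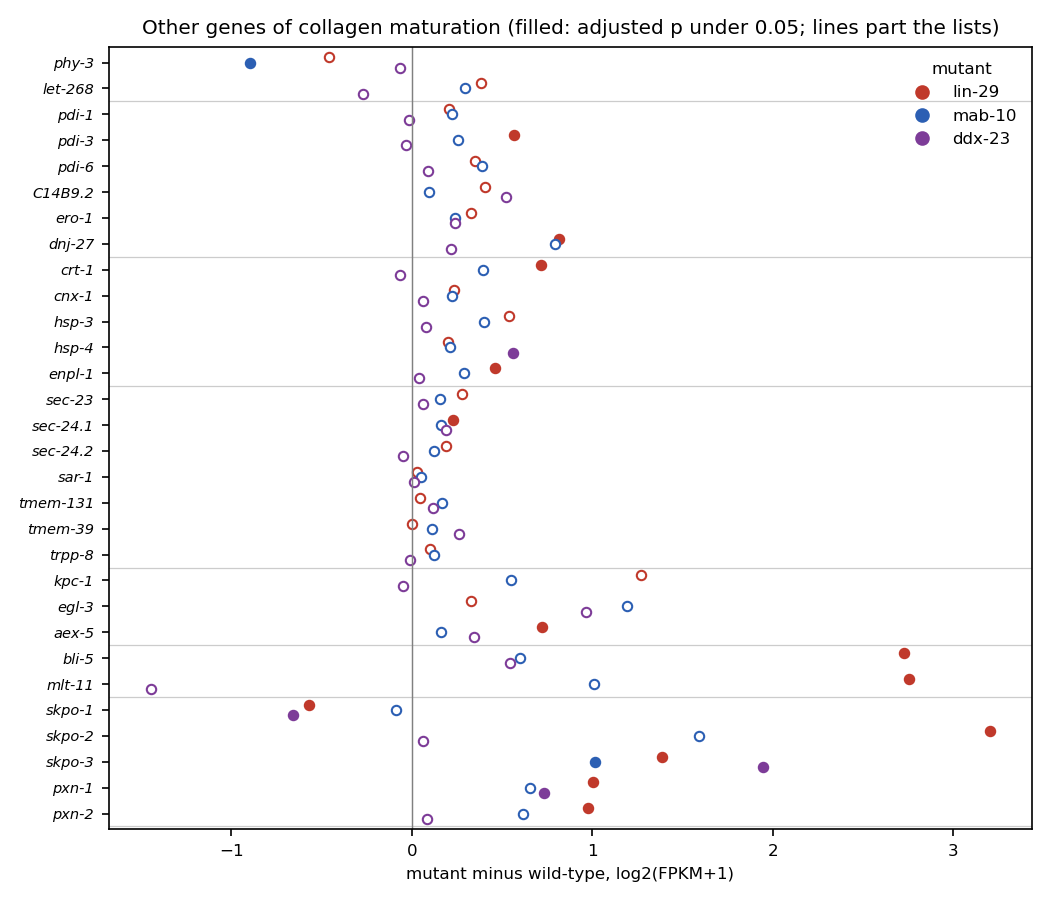
Difference of the 30 other tested genes of collagen maturation from wild-type on the log2(FPKM+1) scale (x axis) in the 3 mutants, ordered by list with lines between the lists; filled points have a limma adjusted p under 0.05. Filled *lin-29* points extend to 3.20 (*skpo-2*), 2.76 (*mlt-11*) and 2.73 (*bli-5*), the genes of collagen secretion lie near 0, and *skpo-3* is filled in all 3 mutants.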

How the data were processed

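Total RNA of whole animals was sequenced (Illumina NextSeq 500). The authors used STAR 2.5.3a for mapping to the WS258 reference and RSEM 1.3.0 for quantification. The deposited values are log2 values, made by the authors as log2(FPKM+1), from which FPKM were recovered by inverting the formula. The authors tested with DESeq2, which needs counts, so that limma 3.58.1 (R 4.3.3, trend and robust options) was used here. Only the 14199 genes that reached 1 FPKM in 3 or more libraries were tested, in 1 model of 4 genotypes over 12 libraries, with Benjamini-Hochberg adjustment in each comparison. Calls are at an adjusted p under 0.05, and the authors' further threshold of 2-fold is given as a difference over 1, which is stricter than 2-fold for genes with low levels. All members are named; of the other lists, genes called in any mutant, or the 3 with the largest difference where more than 3 were called. For 1 listed symbol (*tag-320*) no value was matched. The members and lists were chosen with earlier results of these data known. The fit was tested on simulated data. Positions are from a WBcel235 annotation that may be of another release than WS258. The alternatives changed the added constant, the filter, the scaling, the limma options, the libraries used, the replicate block and the library series. Python 3.11.15 (numpy 2.4.6, pandas 2.3.3, matplotlib 3.10.9) made tables and figures.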

Additional observations from a re-analysis of the deposited data

Results flagged for a closer look

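Differences between mutants passed the test in 5 instances. Of all tested genes, 9.4% were called between *lin-29* and *mab-10* mutants and 21.2% between *lin-29* and *ddx-23* mutants. With 10 members, the counts of 2 and 3 are near these shares. Between *mab-10* and *ddx-23* mutants the count was 0, against 8.09% of all genes. All *lin-29* libraries lay above all *mab-10* libraries in 2186 of the 14199 tested genes, and above all *ddx-23* libraries in 3864. *mlt-7* differed between *lin-29* and *mab-10* mutants by 1.44 (limma adjusted p = 0.00547), with all 3 *lin-29* libraries above all 3 *mab-10* libraries. *dpy-11* differed between the same mutants by 0.38 (adjusted p = 0.0372), with no overlap either. Between *lin-29* and *ddx-23* mutants, *phy-2* differed by 2.17 (adjusted p = 0.0160), *mlt-7* by 1.77 (adjusted p = 9.5e-04) and *pdi-2* by 0.69 (adjusted p = 0.0232), each higher in all *lin-29* libraries. Groups of 3 libraries are too small for a test of outlying libraries.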

How the results depend on the processing

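No member was called lower than wild-type in any mutant under any alternative run. The count of members higher in *lin-29* mutants (8) was 6 to 10 outside the fits that left out 1 library. That of *mab-10* mutants (1) was 0 without the low-value filter, under the median-ratio scaling, under quantile normalization, with wild-type alone and with the replicate block, 6 with the library series as a term and 3 within the earlier libraries. That of *ddx-23* mutants (5) was 3 without the filter, 2 under the median-ratio scaling, 1 under quantile normalization and 9 with the series as a term or within the earlier libraries. Members differing between *lin-29* and *mab-10* (2) numbered 1 under either scaling or in limma without its trend and robust options, 5 with the series as a term and 4 within the later libraries. Those of *lin-29* and *ddx-23* (3) numbered 5 within the earlier libraries, and those of *mab-10* and *ddx-23* (0) numbered 3 with the series as a term and 3 within the earlier libraries.

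Among the other listed genes, those higher in *lin-29* mutants (12) numbered 6 under quantile normalization, and those lower (1) numbered 2 under either scaling and in limma without the options, and 0 within the later libraries. Those higher in *mab-10* mutants (1) numbered 0 under quantile normalization or with wild-type alone, 2 in limma without the options, 4 with the series as a term, 7 within the earlier and 2 within the later libraries. Those lower (1) numbered 0 with wild-type alone, 2 within the earlier and 0 within the later libraries. Those higher in *ddx-23* mutants (3) numbered 1 under quantile normalization, 7 with the series as a term and 14 within the earlier libraries. Those lower (1) numbered 2 with 0.1 as the added constant, under either scaling, with the replicate block, with the series as a term and within the earlier libraries. Calls over all tested genes moved with the settings too. In *ddx-23* mutants 1018 were higher, 693 under quantile normalization, 2701 with the series as a term and 3826 within the earlier libraries. With the series as a term 778 were higher in *mab-10* mutants, against 147, and 2874 in *lin-29* mutants, against 2320.

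With 1 library left out, the higher members numbered 5 to 10 in *lin-29*, 0 to 6 in *mab-10* and 1 to 6 in *ddx-23* mutants. Members differing numbered 1 to 3 between *lin-29* and *mab-10*, 1 to 6 between *lin-29* and *ddx-23* and 0 to 1 between *mab-10* and *ddx-23*. The other listed genes numbered 7 to 20, 0 to 12 and 1 to 6 higher, and 0 to 1 lower in each mutant.

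The reversed differences were all of uncalled members. Against wild-type, *phy-2* in *ddx-23* mutants was -0.12 under quantile normalization and ranged from -0.12 to 0.71 with 1 library left out, being -0.03 and -0.12 without the first and the second wild-type replicate. *bli-3* and *mlt-7* in *ddx-23* mutants were -0.00 and -0.06 under quantile normalization. *bli-4* in *mab-10* mutants was -0.04 under the median-ratio scaling and -0.04 within the earlier libraries, where *dpy-31* and *mlt-7* were -0.18 and -0.11. Between *lin-29* and *mab-10*, *tsp-15* was -0.13 under quantile normalization, -0.02 within the earlier libraries and -0.12 to 0.33 with 1 library left out, being negative (-0.12 and -0.03) without *lin-29* replicate 2 or *mab-10* replicate 1. Between *mab-10* and *ddx-23*, *pdi-2* was -0.11 with the series as a term and -0.14 within the earlier libraries, where *doxa-1* and *mlt-7* were -0.28 and -0.31. The cause was not tested.

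The replicate numbers did not pair the libraries throughout: of 18 pairs with the same number, 8 had a correlation over 0.1, with r from -0.298 to 0.460. Those pairs ran from -0.0622 to 0.460 within a library series and from -0.298 to 0.113 across the series. A pair of unlike number within a series, wild-type replicate 2 with *lin-29* replicate 1, reached 0.399. With the replicate block, *tsp-15* lost its call in *mab-10* (adjusted p = 0.0503) and *ddx-23* mutants (0.0547), and *dpy-11* was called between *lin-29* and *ddx-23* (adjusted p = 0.0246). It changed no other call of a member. Over all tested genes, *lin-29* mutants had 2320 calls higher and 388 lower, 1847 and 1274 under the median-ratio scaling and 1383 and 1948 under quantile normalization. In *ddx-23* mutants they were 1018 and 207, 859 and 441, and 693 and 655, and in *mab-10* mutants 147 and 33, 112 and 44, and 81 and 59. Without read counts, no limit of detection can be given for the low genes.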

Other observations

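Of the listed genes, 3 did not pass the filter on low values. *phy-4*, a further prolyl 4-hydroxylase alpha subunit, was listed at 0.00, 0.00 and 0.24 FPKM in wild-type and measured 0.30, 0.82 and 0.37 in *lin-29* mutants, 0.26, 0.47 and 0.53 in *mab-10* mutants, with 0.10, 0.00 and 0.00 in *ddx-23* mutants. *duox-2*, the neighbor of *bli-3* that encodes a similar dual oxidase, did not exceed 0.04 FPKM in any library. The peroxidase gene *hpx-2* was above 0 in 1 *lin-29* library (0.08 FPKM) and 1 *ddx-23* library (0.03 FPKM).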
